A study of Arabidopsis thaliana with 8 samples.

Results

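The genes described here are 8 Arabidopsis loci of the epidermal layer, out of 25686 loci with a unique read in any library: the transcription factor genes ATML1 (AT4G21750), PDF2 (AT4G04890), ANL2 (AT4G00730), HDG2 (AT1G05230) and HDG11 (AT1G73360), the cell surface and wall genes PDF1 (AT2G42840) and ACR4 (AT3G59420), and the fatty acid elongation gene FDH (AT2G26250). They were chosen by their known place in this pathway, as a list of locus identifiers, with their unique read counts in these 8 libraries already known; no threshold on those counts was set. The unique reads of all listed transcript models of a locus were added up. The 8 libraries come from de novo shoot regeneration, in which root explants form callus on callus-inducing medium (CIM) and are then moved to shoot-inducing medium (SIM). hag1, which carries a mutation in HAG1 (also called GCN5), a gene for an enzyme that acetylates histones, and the wild type Columbia-0 (Col) were each sampled as roots, as explants after 4 days on CIM, after CIM and a further 2 days on SIM, and after CIM and a further 2 weeks on SIM. Each genotype and stage gave 1 library, so there is no replicate within a group. The labels name neither the hag1 allele nor the number of plants behind a library.

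The shoot epidermis descends from the outermost meristem layer, called L1, whose cells divide mostly in the plane of the surface. ATML1 and PDF2 encode homeodomain leucine zipper proteins of class IV (HD-ZIP IV) that specify this layer together and bind the L1 box, a short DNA element found in promoters active in L1, including their own and that of PDF1. PDF1 encodes a putative extracellular proline-rich protein widely used as an L1 marker, ACR4 a receptor-like kinase of epidermal and root tip cells, and FDH (FIDDLEHEAD) a ketoacyl-CoA synthase without which epidermal surfaces fuse. ANL2, HDG2 and HDG11 are further HD-ZIP IV factors, known for anthocyanin in leaves, for trichomes and stomata, and for trichome branching.

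The L1 box was searched as TAAATGCA and TAAATGTA on both strands, from 250 bases before to 50 after the start of the transcript model given in the deposited files. TAAATGCA and its reverse complement can overlap. At least 1 match was found in 6 of the 8 promoters (ATML1, PDF2, PDF1, FDH, ANL2 and HDG2), and none in those of ACR4 and HDG11. Across the genome 1040 of 25535 such windows held a match, or 4.07%. The promoters of ATML1, PDF2 and PDF1 were already known to hold the element, and no other sequence feature was searched. The stretches of 30 bases around the 6 matches were read from the TAIR10.1 genome in the sense of the gene, with the box in capitals.
ATML1: ttcgataatcaTAAATGCAatgcaccctct
PDF2: ttagatcatcaTAAATGCAttgcaccctct
PDF1: atgggatagtgTAAATGCAcctgcaacaca
FDH: aaaaattgtaaTAAATGCAaacataagatc
ANL2: ttgtcaaaaaaTGCATTTAaccaaaaaaat
HDG2: tatctaatagaTAAATGTAagtctcatagg

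These stretches lie at chr4:11555143-11555172 on the plus strand for ATML1 and, on the minus strand, at chr4:2482350-2482379 for PDF2, chr2:17827600-17827629 for PDF1, chr2:11173314-11173343 for FDH, chr4:304650-304679 for ANL2 and chr1:1518989-1519018 for HDG2. The ATML1 and PDF2 stretches were identical at 27 of 30 positions, against 10 to 13 in the other pairs. The first base of the box lay 32 bases before the given start in ATML1, 23 in PDF2 and 82 in PDF1, and RefSeq places these boxes within an exon of the gene, since its own start is further upstream. In FDH, ANL2 and HDG2 the box began 190, 160 and 202 bases before the start and lay outside the RefSeq exons of the gene. The ANL2 box is on the opposite strand, and HDG2 carries the TAAATGTA spelling. A match describes these letters and is not evidence of binding.

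**Figure D1:**
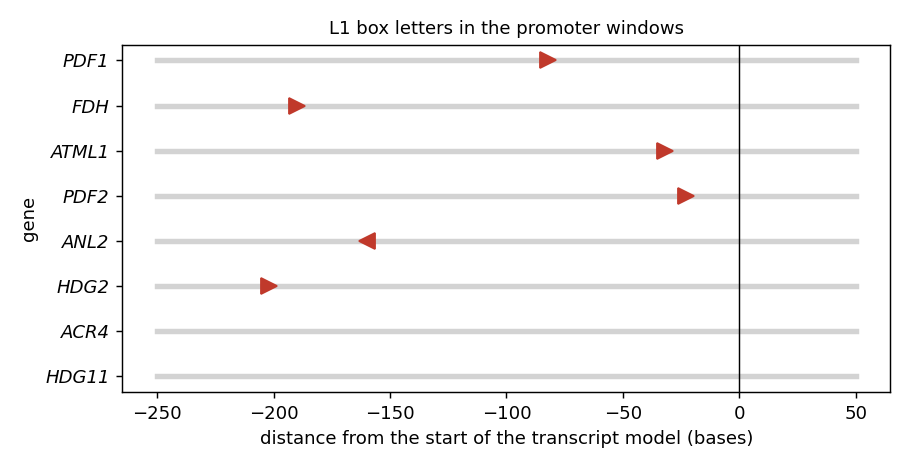
Position of L1 box matches in the promoter windows of the 8 genes. The x axis is the distance in bases from the start of the transcript model, each grey bar is the window from 250 bases before to 50 after the start, and each arrowhead is a match pointing in the direction of its strand relative to the gene. The boxes of PDF2, ATML1 and PDF1 lie within 82 bases of the start, those of ANL2, FDH and HDG2 160 to 202 bases before it, and ACR4 and HDG11 have none.

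The libraries held between 6.96 and 7.54 M unique reads (M, 1e+06), and 3 reads, the limit used for a locus at 0, equal 0.398 to 0.431 counts per 1e+06 unique reads (CPM). HAG1 itself had 8 to 21 reads in the 4 hag1 libraries and 156 to 340 in the 4 Col libraries. All 6 root epidermis markers (such as EXPA7 and COBL9, of root hair cells) had reads in both root libraries. Their summed level, in CPM scaled by the trimmed mean of M values (TMM CPM, the scale of all CPM values that follow), was 127 in hag1 and 187 in Col roots. It lay between 6.06 and 44.2 in the 6 explant libraries. The 6 green leaf markers summed to 587 TMM CPM in hag1 and 909 in Col after 2 weeks on SIM, against 33.4 to 175 in the other 6 libraries. The shoot meristem markers WUS, STM and CLV3 together had 28 reads in hag1 and 45 in Col after 2 weeks on SIM and at most 10 elsewhere, with CLV3 at 0 in every library. In such bulk tissue, fewer cells of a type and less RNA per cell cannot be told apart.

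Of the 8 genes PDF1 had the widest range of differences between the genotypes, and the order of the genotypes turned round between root and explants. In the order root, CIM, SIM 2 days and SIM 2 weeks it had 833, 610, 115 and 38 unique reads in hag1, against 275, 2377, 3122 and 310 in Col. The TMM-scaled levels were 118, 84.2, 15.9 and 5.65 CPM in hag1, against 40.5, 306, 379 and 46.4 CPM in Col. The hag1 library was the higher one in roots and the lower one at each of the explant stages.

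PDF1 was 2.91-fold higher in hag1 than in Col roots, with an exact (Clopper-Pearson) 95% interval of 2.53 to 3.35. Like those below, this interval covers counting error alone and treats each read as an independent molecule. Reads without molecular tags need not be independent, so the intervals can be too narrow even for counting error. PDF1 was 3.64-fold lower in hag1 on CIM (3.33 to 3.98), 23.9-fold lower after 2 days on SIM (19.8 to 29.0) and 8.21-fold lower after 2 weeks on SIM (5.85 to 11.8). These intervals do not include equality at any stage, but no library was replicated, so the differences between genotypes within a stage have no test.

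Followed within a genotype, PDF1 moved in opposite directions on CIM. It was 1.40-fold lower on CIM than in roots in hag1 (95% interval 1.26 to 1.55), and 7.57-fold higher in Col (6.68 to 8.61). From CIM to 2 days of SIM it was 5.31-fold lower in hag1 (4.34 to 6.54) and 1.24-fold higher in Col (1.17 to 1.30). After 2 weeks on SIM it was below the 2-day level in both genotypes, 2.80-fold in hag1 (1.93 to 4.16) and 8.15-fold in Col (7.25 to 9.19). The final Col level did not differ from that of Col roots beyond counting error (1.15-fold, 0.97 to 1.35), while the final hag1 level was 20.8-fold below that of hag1 roots (15.0 to 29.6). PDF1 had the widest coverage of the 8 genes together with FDH, with 62.1 to 97.9% of its transcript covered by reads according to the authors' deposited values.

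**Figure D2:**
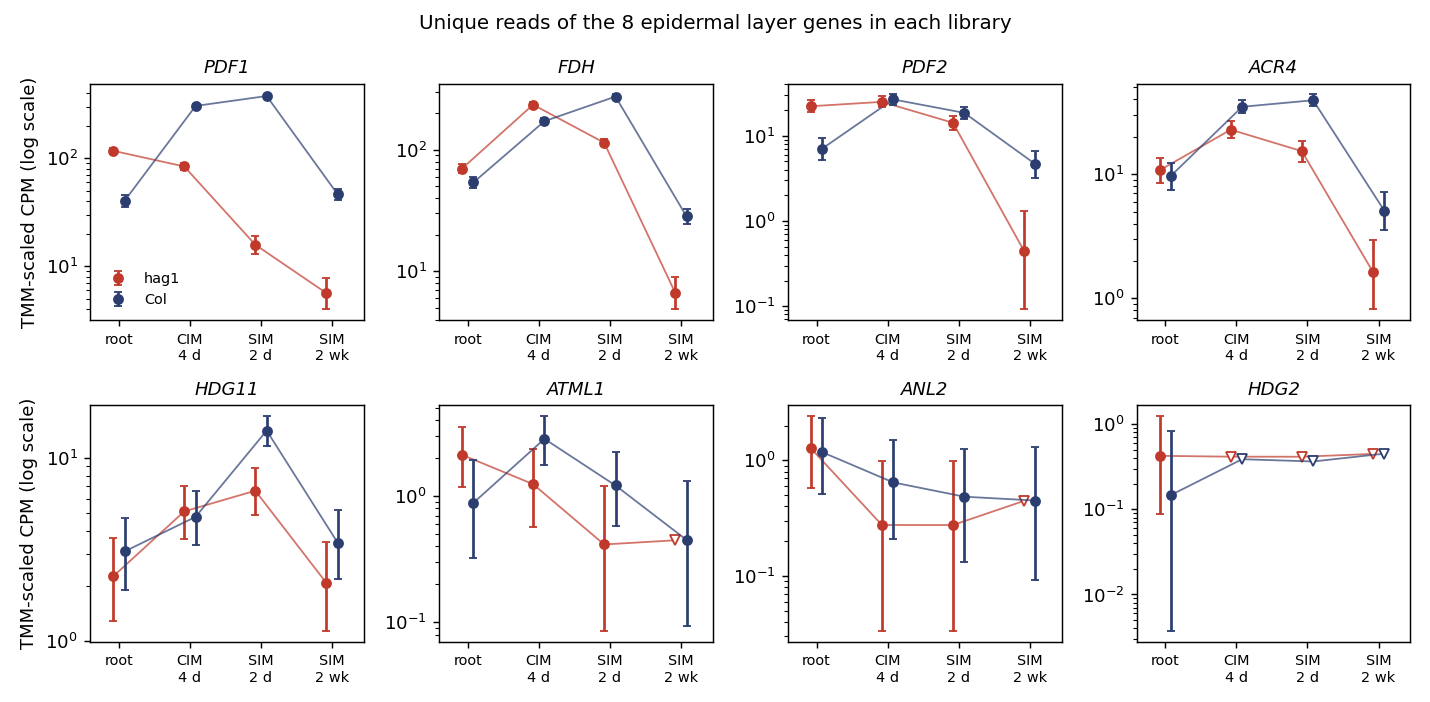
TMM-scaled CPM (y axis, log scale, own range in each panel) of the 8 genes at the 4 stages (x axis), in hag1 (red) and Col (blue), with 1 library per point. Bars are exact 95% counting intervals, lines join libraries of 1 genotype, and open triangles mark libraries without a read at the level of 3 reads. PDF1 stands at 15.9 CPM in hag1 and 379 CPM in Col after 2 days on SIM, and ANL2 and HDG2 stay near the level of 3 reads.

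Of the factors that specify L1, PDF2 had enough reads to follow and ATML1 did not. PDF2 had 157, 181, 103 and 3 reads in hag1 at root, CIM, SIM 2 days and SIM 2 weeks, against 48, 207, 153 and 31 in Col. Like PDF1 it was higher in hag1 than in Col roots, by 3.14-fold (95% interval 2.26 to 4.43). It was close in both genotypes on CIM, with a ratio of hag1 to Col of 0.94 (0.76 to 1.15), and 1.31-fold lower in hag1 after 2 days on SIM (1.01 to 1.69). After 2 weeks on SIM it was 10.4-fold lower in hag1, on 3 reads against 31, with an interval of 3.25 to 53.2.

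The 3.78-fold higher PDF2 level on CIM than in roots in Col (2.75 to 5.29) stood beside a ratio of 1.13 in hag1 (0.90 to 1.40). ATML1, the nearest relative of PDF2, had 15, 9, 3 and 0 reads in hag1, against 6, 22, 10 and 3 in Col. Its reads pointed the same way as those of PDF1 (more in the hag1 root library, more in each Col explant library), but the interval of the ratio included equality in roots (0.88 to 7.55) and after 2 days on SIM (0.06 to 1.32). After 2 weeks, 0 reads in hag1 and 3 in Col did not differ beyond the limit of 3 reads used for a locus at 0. On CIM ATML1 was 2.28-fold lower in hag1 (1.01 to 5.63). ATML1 has 2 listed models, of which reads covered 1.60 to 3.20% and 3.70 to 10.8% in the libraries that list them, so its reads are a small part of its transcript and its level cannot be set against those of the other genes.

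ACR4 and FDH differed between the genotypes mainly on SIM. ACR4 had 76, 165, 111 and 11 reads in hag1, against 66, 270, 324 and 34 in Col. In roots its ratio of hag1 to Col was 1.11 (0.78 to 1.56). It was 1.53-fold lower in hag1 on CIM (1.25 to 1.87), 2.57-fold lower after 2 days on SIM (2.06 to 3.21) and 3.11-fold lower after 2 weeks (1.54 to 6.81), the last on fewer than 50 reads.

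FDH, which elongates fatty acids for the cuticle, had 496, 1701, 830 and 45 reads in hag1, against 366, 1333, 2259 and 189 in Col. Unlike PDF1 it was slightly higher in hag1 both in roots (1.30-fold, 1.13 to 1.49) and on CIM (1.37-fold, 1.27 to 1.47). On CIM it stood above roots by nearly the same factor in both genotypes, 3.35-fold in hag1 and 3.19-fold in Col. The genotypes parted after 2 days on SIM. FDH was then 2.05-fold below the CIM level in hag1 (1.89 to 2.23) and 1.59-fold above it in Col (1.49 to 1.71), so that hag1 was 2.39-fold lower than Col (2.21 to 2.60). After 2 weeks hag1 was 4.23-fold lower (3.04 to 5.99).

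HDG11 had 16, 37, 48 and 14 reads in hag1, against 21, 37, 116 and 23 in Col. It passed 50 reads in a single library, Col after 2 days on SIM, and there hag1 was 2.13-fold lower (1.51 to 3.04). At the other stages its interval included equality. ANL2 had 9, 2, 2 and 0 reads in hag1, against 8, 5, 4 and 3 in Col, and HDG2 had 3 reads in the hag1 root and 1 in the Col root library and none in any explant library. The reads of both are at or near the limit of detection, and 0 reads allow up to 3 reads per library. No difference between the genotypes was therefore detectable within a stage from these reads. Within hag1, ANL2 had 0 reads after 2 weeks on SIM and 9 reads in roots. With 0 reads set to 3, its level was 2.85-fold lower after 2 weeks than in roots. This value leaves out the counting error of the root reads. The exact counting interval of the drop reached down to 1.87-fold. ANL2 and HDG2 models were covered over at most 2.91% of their length, so that their reads too come from a small part of the transcript. As for ATML1, their levels cannot be set against those of the other genes.

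Set side by side per length, in the authors' RPKM, PDF1 and FDH were the most abundant of the 5 genes with a single listed model and at least 50 reads in a library. The share of the model covered was as low as 4.76%, for PDF2 in hag1 after 2 weeks on SIM. In Col after 2 days on SIM, PDF1 had 339.9 RPKM, FDH 144, ACR4 12.9, PDF2 6.71 and HDG11 5.11. In hag1 at that stage the order was another, with FDH at 56.1 RPKM, PDF1 at 13.3, PDF2 at 4.78, ACR4 at 4.68 and HDG11 at 2.24. PDF1 also led in roots, with 94.0 RPKM in hag1 and 29.4 in Col, where FDH had 32.8 in hag1 and 22.9 in Col. On CIM FDH led in hag1 (112 RPKM, PDF1 68.7) and PDF1 in Col (PDF1 270.3 RPKM, FDH 88.9). After 2 weeks PDF1 again led in both, at 4.13 RPKM in hag1 and 35.9 in Col.

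Counted together, 2 of the 8 genes were at least 2-fold higher in hag1 than in Col roots (PDF1 and PDF2) and none lower, among the 4 with at least 50 reads in either library. Of all 12819 loci with that many reads in roots, 4.39% were at least 2-fold higher and 7.83% lower in hag1. On CIM only PDF1 was past 2-fold, lower in hag1, of 4 genes with 50 reads, where 7.64% of all such loci were lower and 5.01% higher. After 2 days on SIM 4 of 5 were at least 2-fold lower in hag1 (PDF1, FDH, ACR4 and HDG11, with PDF2 the exception), against 9.61% of all loci lower and 5.48% higher. After 2 weeks both genes with 50 reads, PDF1 and FDH, were lower, against 11.6% of all loci lower and 2.6% higher. The limit of 50 reads can be met in either library, so genes near it enter through the library where they are higher. PDF1 and FDH met it after 2 weeks in Col alone (38 and 45 reads in hag1). HDG11 met it after 2 days in Col alone, and PDF2 in roots in hag1 alone. The shares over all loci carry the same limit. The median log2 ratio of hag1 to Col over the genes with 50 reads was 0.96 in roots and -0.35 on CIM (4 genes each). It was -1.26 after 2 days on SIM (5 genes) and -2.56 after 2 weeks (PDF1 and FDH). That over all loci with 50 reads lay between -0.05 and 0.04. The set of genes changes between stages, so these medians do not follow the same genes. The genes were chosen with these read counts known, so these counts describe them and test nothing.

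**Figure D3:**
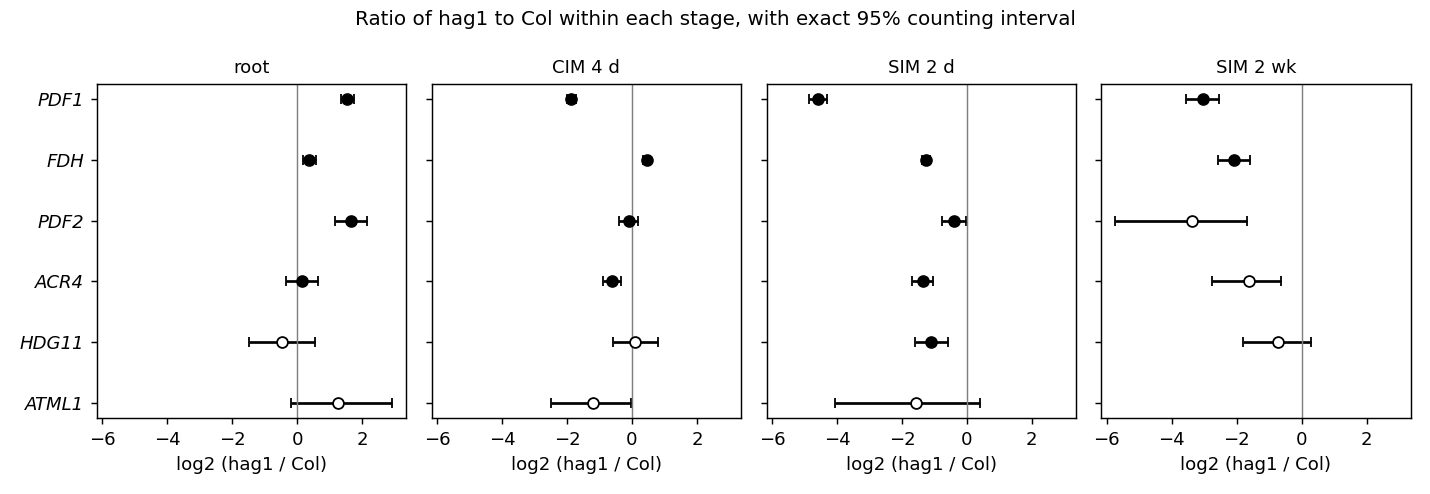
Ratio of hag1 to Col (x axis, log2) for 6 of the 8 genes, with ANL2 and HDG2 left out (y axis), in a panel per stage. ATML1 has no point after 2 weeks on SIM, where hag1 had no read. Points are ratios of 1 library to 1 library, bars are exact 95% counting intervals, filled points have at least 50 reads in either library and open points fewer, and the vertical line marks equality. PDF1 moves from 1.54 in roots to -4.58 after 2 days on SIM, and FDH from 0.45 on CIM to -2.08 after 2 weeks.

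Differences between stages that both genotypes shared were tested with edgeR's quasi-likelihood test in a model of stage and genotype, which takes libraries of other stages in place of replicates, so its p-values measure the spread between these libraries and treat an effect of hag1 that varies by stage as error. Of the 8 genes 6 had enough reads to be tested; ANL2 and HDG2 did not. After 2 weeks on SIM 3 of the 6 fell relative to 2 days: ACR4 by 3.01 on the log2 scale (SE 0.47, adjusted p = 0.0192), FDH by 3.52 (SE 0.68, adjusted p = 0.0316) and HDG11 by 1.87 (SE 0.38, adjusted p = 0.0353). Among all 18710 loci tested 4.31% fell and 7.09% rose in that comparison. The values of PDF2 (-2.71, SE 0.94, adjusted p = 0.115) and PDF1 (-2.63, SE 1.31, adjusted p = 0.238) lay between those of HDG11 and ACR4 and did not pass. The calls rest on single libraries: none of the 3 passed without the Col library at 2 days or the hag1 library at 2 weeks, FDH alone passed without Col at 2 weeks, ACR4 alone without hag1 at 2 days, and HDG11 did not pass without either root library.

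For CIM against roots 0 of the 6 genes passed in edgeR (2 at an unadjusted p under 0.05), where 12.7% of all loci rose and 17% fell. The nearest were ACR4 (log2 1.40, SE 0.43, adjusted p = 0.0543) and FDH (1.72, SE 0.63, adjusted p = 0.0875), both of which passed with DESeq2, while limma called ACR4 with a pseudocount of 1 and neither with 0.1. Leaving out Col after 2 weeks on SIM brought in ACR4 and FDH, leaving out the hag1 root library ACR4, and leaving out hag1 after 2 weeks FDH. PDF1, which went up in Col and down in hag1, had a shared value of 0.31 with an SE of 1.27. For SIM 2 days against CIM 0 passed (1 at an unadjusted p under 0.05; 0 with DESeq2 and limma), where 0.0641% of all loci rose and 0.00534% fell. After 2 weeks on SIM ACR4 was below roots (log2 -1.78, SE 0.47, adjusted p = 0.0411), 1 of 6, where 14.9% of all loci fell and 11.9% rose. That call was lost on total-read scaling, with limma, and without any 1 of 7 libraries other than Col roots, while DESeq2 called FDH, PDF1 and PDF2 as well; without Col roots PDF1 passed too, and without Col after 2 weeks FDH and PDF2 passed in its place.

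A genotype effect shared by the 4 stages was found by edgeR for 0 of the 6 genes (1 at an unadjusted p under 0.05; 0 with DESeq2 and limma), where 0.241% of all loci were higher and 0.192% lower in hag1. Of the 6, ACR4 had the lowest adjusted p (log2 -0.81, SE 0.31, adjusted p = 0.224), and PDF1 the largest SE (-2.09, SE 1.07, adjusted p = 0.332). A term added after the data were seen, for the hag1 effect in the explants minus that in roots, gave -4.67 for PDF1 (SE 1.15, adjusted p = 0.603), -2.74 for ATML1 (SE 0.98, adjusted p = 0.603) and -2.41 for PDF2 (SE 1.08, adjusted p = 0.623). It gave -1.28 for FDH (SE 1.00, adjusted p = 0.724), -1.27 for ACR4 (SE 0.50, adjusted p = 0.605) and -0.13 for HDG11 (SE 0.71, adjusted p = 0.971). No locus passed for that term (0% of 18710; 1551 at an unadjusted p under 0.05).

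Of the 11 other genes of the HD-ZIP IV family, 3 could be tested. HDG7 rose on CIM relative to roots (log2 2.84, SE 0.45, adjusted p = 0.00853), where 12.7% of all loci rose. It fell between 2 days and 2 weeks on SIM (-3.58, SE 0.46, adjusted p = 0.0130), where 4.31% of all loci fell. It had 39, 354, 232 and 24 reads in hag1, against 70, 424, 1018 and 56 in Col. HDG12, the nearest relative of HDG11, fell at the last step as well (-1.72, SE 0.34, adjusted p = 0.0328). After 2 days on SIM all 3 members with 50 reads were at least 2-fold lower in hag1, as were 9.61% of all loci with that many reads: HDG7 had 232 reads in hag1 and 1018 in Col, HDG1 76 in hag1 and 274 in Col, and HDG12 22 in hag1 and 68 in Col. At the other stages HDG1 and HDG7 had 50 reads. Neither was past 2-fold in roots, HDG1 was lower in hag1 on CIM (31 reads, against 165 in Col) and HDG7 after 2 weeks, when HDG1 had 153 reads in hag1 and 144 in Col. HDG12 after 2 days, HDG1 on CIM and HDG7 after 2 weeks reached 50 reads in Col alone. The call on CIM was lost without the Col root library, and the 2 at the last step were both lost without Col at 2 days, Col at 2 weeks or hag1 at 2 weeks, while HDG12 was also lost without either CIM library or hag1 at 2 days and with limma at a pseudocount of 1. For the genotype effect over stages edgeR called 0 of the 3 (2 at an unadjusted p under 0.05; limma 0, DESeq2 1, HDG7, lower in hag1).

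Among 11 genes of epidermal signalling, 8 of them tested, ALE2, a receptor-like kinase that acts with ACR4, kept between 459 and 856 reads in all libraries and was called in no comparison. On CIM 3 of the 8 fell, where 17% of all loci fell: GSO2, a receptor of the embryonic cuticle and root endodermis pathways (log2 -5.29, SE 0.49, adjusted p = 0.00226), and the ACR4 relatives CCR2 (-2.30, SE 0.43, adjusted p = 0.0136) and CCR3 (-1.56, SE 0.45, adjusted p = 0.0471). At the last step, where 7.09% of all loci rose and 4.31% fell, GSO2 rose (3.04, SE 0.45, adjusted p = 0.0171) and CCR4, another ACR4 relative, fell (-2.82, SE 0.51, adjusted p = 0.0268). After 2 weeks on SIM CCR2, CCR3 and CCR4 were below roots, where 14.9% of all loci fell. ACR4 itself was not among the genes called on CIM. GSO2 alone was called there without Col roots or either CIM library, and CCR3 was lost without any 1 library other than hag1 roots. At the last step both calls were lost without Col at 2 days or at 2 weeks, GSO2 without hag1 at 2 days and CCR4 without hag1 at 2 weeks; limma did not call GSO2. The 3 calls against roots were all lost without Col roots or hag1 at 2 weeks, and CCR4 alone was left without Col at 2 weeks. Within a stage, of the signalling genes with 50 reads, 2 of 5 were at least 2-fold lower in hag1 in roots, 0 of 4 on CIM, 0 of 3 after 2 days on SIM and 2 of 4 after 2 weeks, and none was higher. Of all loci with that many reads, 7.83%, 7.64%, 9.61% and 11.6% were lower at these stages, in that order. The shares that were higher were 4.39%, 5.01%, 5.48% and 2.6%. GSO2, among the lower genes in roots and after 2 weeks, reached 50 reads in Col alone. For the genotype effect edgeR called 0 of the 8 (2 at an unadjusted p under 0.05; limma 0, DESeq2 1, GSO2, lower in hag1).

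Genes of the cuticle and wax, the products of epidermal cells to which FDH belongs, were also called in the stage comparisons. Of 34 listed genes 23 were tested, and on CIM 7 rose and 1 fell relative to roots, where 12.7% of all loci rose and 17% fell, with a median log2 change of 1.28 against 0.01 over all loci. The rises were led by LTP1, a lipid transfer protein (log2 5.37, SE 0.72, adjusted p = 0.00539), KCS6, the wax elongation enzyme (4.53, SE 0.60, adjusted p = 0.00532), and CER3, of alkane synthesis (3.50, SE 0.59, adjusted p = 0.0103). CER4, the fatty alcohol reductase, fell. It had no read on CIM, with 36 reads in hag1 roots and 188 in Col roots. With each library at 0 set to 3 reads, its drop was at least 12.3-fold in hag1 and at least 71.5-fold in Col. These limits leave out the counting error of the root reads. The count of 7 was 2 without the Col root library and 3 without either CIM library, and neither CER3 nor CER4 was called without Col roots. CER4 was not called by DESeq2, where GPAT8 was the 1 gene that fell, and a filter of 1 CPM in 4 libraries removed it from the test.

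At the last step 9 of the 23 cuticle genes fell and none rose, where 4.31% of all loci fell and 7.09% rose, with a median of -2.40 against 0.01 over all loci. The wax exporters ABCG12 (log2 -4.44, SE 0.77, adjusted p = 0.0244) and ABCG11 (-3.90, SE 0.69, adjusted p = 0.0257), the cutin gene BDG1 (-4.44, SE 0.93, adjusted p = 0.0372) and the lipid transfer protein gene LTPG1 (-3.95, SE 0.74, adjusted p = 0.0287) fell most. The count of 9 was 15 with DESeq2, 1 without Col at 2 days, 5 without Col at 2 weeks and 2 without hag1 at 2 weeks. After 2 weeks on SIM 1 of the 23 stood above roots and 2 below them, shares under those of all loci (11.9% and 14.9%). LTP1 was above roots (2.55, SE 0.66, adjusted p = 0.0379), and GPAT8, of cutin synthesis, below them (-2.77, SE 0.59, adjusted p = 0.0228), as did CER4. The rise of LTP1 was not called without either root library, either library at 2 days or Col at 2 weeks, and the count of 2 that fell lay between 0 (without Col roots) and 6 (without Col at 2 weeks), with 5 without either CIM library, 1 without hag1 roots or hag1 at 2 weeks, and 9 with DESeq2. edgeR called none of the 23 for SIM 2 days against CIM (0 at an unadjusted p under 0.05) and none for the genotype effect over stages (4 at an unadjusted p under 0.05); DESeq2 and limma called 0 in both.

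Within a stage the cuticle genes lay on both sides of equality in roots. With at least 50 reads, 2 of 18 were at least 2-fold higher and 2 lower in hag1 roots (4.39% and 7.83% of all loci with that many reads), with a median log2 ratio of hag1 to Col of -0.20. On CIM 0 of 20 were higher and 1 was lower (CER2; 5.01% and 7.64% of all such loci), with a median of 0.29. After 2 days on SIM 11 of 20 were at least 2-fold lower in hag1 and none higher, against 9.61% of all such loci lower and 5.48% higher, with a median of -1.11. Among them were CER3, with 1800 reads in hag1 and 6698 in Col, ABCG11, with 577 in hag1 and 1759 in Col, BDG1, with 337 in hag1 and 1019 in Col, and DCR, an acyltransferase of cutin, with 177 in hag1 and 1369 in Col. After 2 weeks 11 of 14 were lower and none higher, against 11.6% of all such loci lower and 2.6% higher, with a median of -1.78. Of these, ABCG12, ABCG11, ABCG32 and LTPG1 reached 50 reads in Col alone. So did HTH and MYB96 among the lower genes after 2 days, CER2 on CIM and CER4 in roots, while BDG1, higher in hag1 roots, reached it there alone.

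The levels of the cuticle genes added up to 820, 2565, 1849 and 321 TMM CPM in hag1, against 1146, 2020, 3545 and 823 in Col. PDF1 stood apart from this sum on CIM, where it was 3.64-fold lower in hag1 while the sum was higher in hag1. LTP1 alone made 591 of the CIM sum in hag1 and 383 in Col. Of the 20 cuticle genes with 50 reads on CIM, 14 were higher in hag1 and 6 lower. Other cell type markers also differed between the genotypes on SIM. After 2 days the 4 vascular markers summed to 349.6 TMM CPM in hag1 and 170.4 in Col. That sum was mostly the phloem gene SUC2 (331 in hag1, 116 in Col), while the xylem genes XCP2 (11.7 in hag1, 40.6 in Col) and IRX3 (6.48 in hag1, 13.5 in Col) were lower in hag1. The 6 root epidermis markers summed to 27.7 in hag1 and 20.1 in Col, of which RHD6 made 17.1 in hag1 and 7.52 in Col, while WER (1.24 in hag1, 2.55 in Col) and RSL4 (0.552 in hag1, 1.58 in Col) were lower in hag1, on few reads. The 3 root cap markers summed to 5.93 in hag1 and 0.849 in Col, and the 6 leaf markers to 35.4 in hag1 and 46.7 in Col. After 2 weeks the vascular markers summed to 183 in hag1 and 507 in Col, the root epidermis markers to 19.0 in hag1 and 44.2 in Col, and the root cap markers to 0.149 in hag1 and 3.30 in Col, with SMB and BRN2 at 0 in hag1. The part of these tissue differences in the values of the epidermal genes was not tested.

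**Figure D4:**
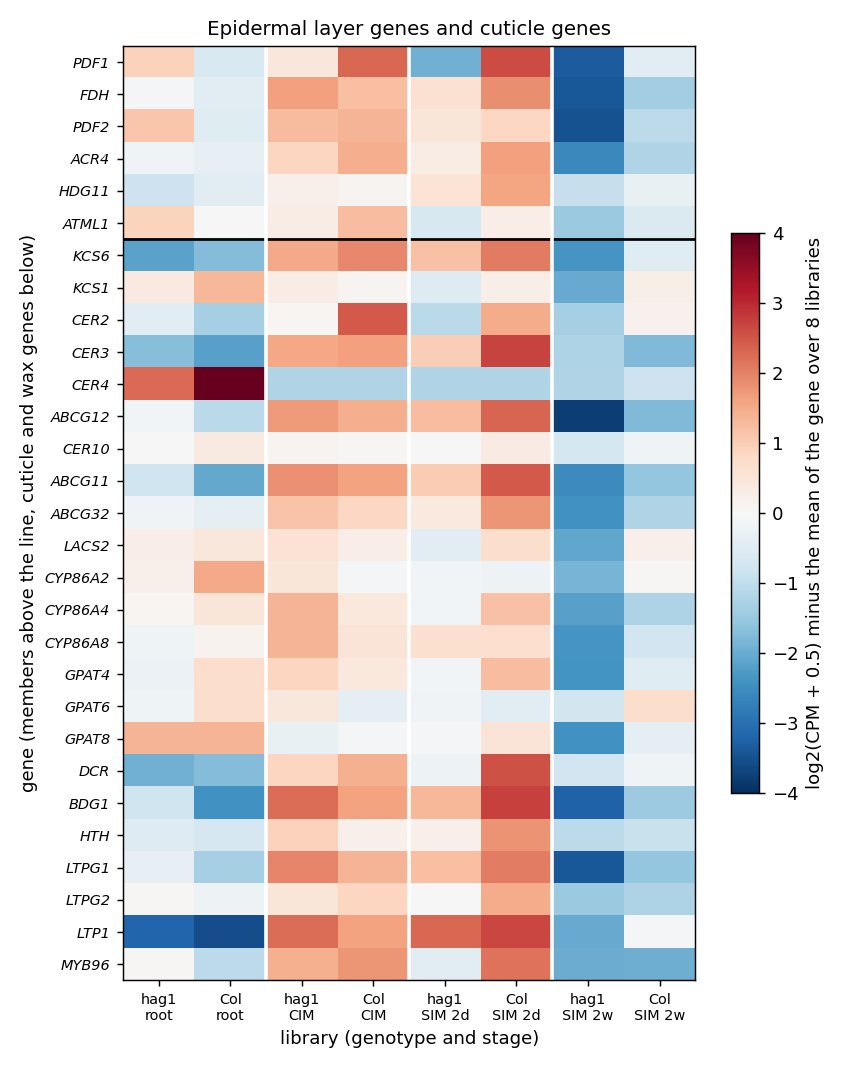
Levels of the 6 epidermal layer genes that were tested (above the line) and of the 23 tested cuticle and wax genes (below it) in the 8 libraries (x axis, hag1 left of Col in each stage). Colour is log2(CPM + 0.5) minus the mean of the gene over the 8 libraries, red above and blue below it. Cuticle genes such as ABCG11 and BDG1 are highest in Col after 2 days on SIM and lowest in hag1 after 2 weeks, and CER4 is seen mainly in roots.

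**Figure D5:**
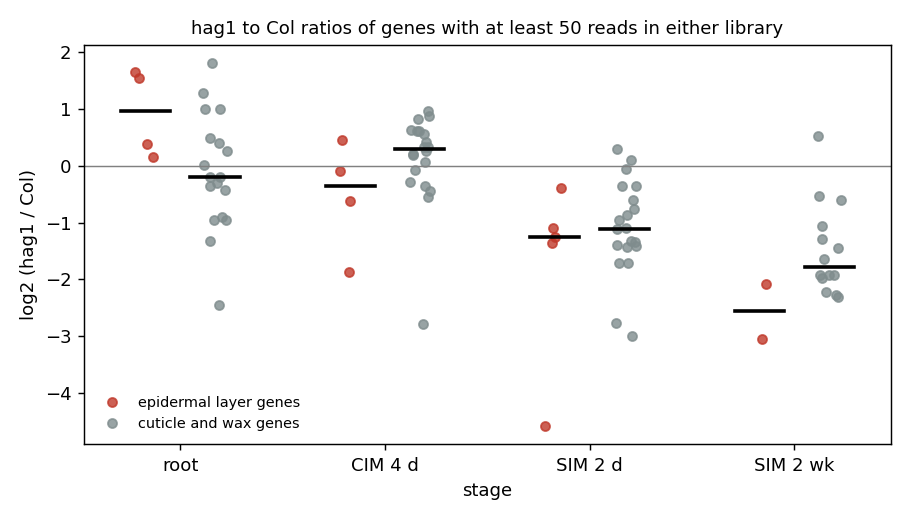
Log2 ratio of hag1 to Col (y axis) at each stage (x axis) for the epidermal layer genes (red, left) and the cuticle and wax genes (grey, right) with at least 50 reads in either library. Each point is a gene and the black bars are medians, which are 0.96 and -0.20 in roots and -1.26 and -1.11 after 2 days on SIM for epidermal layer and cuticle genes.

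Genes of the specialised epidermal cells were mostly near the limit of detection. Of 17 stomatal lineage genes 5 were tested, and MUTE and EPFL9 had no read in any library. ER and ERL2, receptor kinases of stomatal spacing and stem growth, rose between 2 days and 2 weeks on SIM, where 7.09% of all loci rose (ER log2 3.75, SE 0.81, adjusted p = 0.0398; ERL2 3.40, SE 0.75, adjusted p = 0.0422). ER had 5 reads in hag1 and 63 in Col after 2 weeks, and ERL2 15 in hag1 and 33 in Col. After 2 weeks ERL2 was also above roots and MYB88, a factor of guard cell division, below them (-1.64, SE 0.23, adjusted p = 0.00864), where 11.9% of all loci rose and 14.9% fell. The calls of ER and ERL2 at the last step were both lost on total-read scaling and without any 1 CIM or SIM library, and of this pair only ER was called without either root library. Limma at either pseudocount called ERL2 and not ER, and a filter of 1 CPM in 4 libraries removed ERL2 from the test. The call of ERL2 against roots was lost without either root library or hag1 at 2 weeks.

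Of 12 trichome genes 6 were tested, and GL1, needed for leaf trichomes, had no read in any library. On CIM 4 of the 6 fell relative to roots, where 17% of all loci fell, genes that also act in the root hair pattern: GL3 (log2 -2.20, SE 0.53, adjusted p = 0.0283), MYB23, TRY and ETC1. On CIM ETC1 had 0 reads, against 10 in hag1 roots and 22 in Col roots. By the same limit its level was at least 3.41-fold lower in hag1 and 8.37-fold lower in Col. This too leaves out the counting error of the root reads. GL3, MYB23 and TRY were still below roots after 2 weeks, where 14.9% of all loci fell. The count of 4 was 0 without Col on CIM, 1 without hag1 on CIM or Col roots, and 2 without hag1 roots or either library at 2 days. It was 1 (GL3) with a filter of 1 CPM in 4 libraries, which removed the other 3 from the test, and 3, without TRY, with DESeq2. The count of 3 was 0 without hag1 at 2 weeks, 1 without Col at 2 weeks or either root library, and 2 without either CIM library or either library at 2 days. edgeR called 0 genes of either list for the genotype effect (4 stomatal genes and 1 trichome gene at an unadjusted p under 0.05; limma 0; DESeq2 ER, SCRM2 and GL3, lower in hag1). An L1 box was found in the windows of 5 of 31 cuticle genes (ABCG12, ABCG11, GPAT8, LTPG1 and MYB96), 1 of 10 HD-ZIP IV genes (HDG5), 1 of 11 signalling genes (GSO1), 2 of 15 stomatal genes (TMM and BASL) and 0 of 11 trichome genes, where 4.07% of all windows held one. Of the marker lists only the root cap had one, in 1 of 3 (BRN2). In the bases before the start alone the cuticle count was 4, without GPAT8.

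The loci whose levels over the 8 libraries were most like PDF1, by Pearson correlation of log2(CPM + 0.5) among 13546 loci (those with a mean of at least 5 CPM, and ATML1, which was below it), were DML1, the DNA demethylase gene also called ROS1 (r = 0.97), ATR, a DNA damage checkpoint kinase gene (0.97), AT3G48410 (0.96), AT5G46115 (0.96) and AT1G74320 (0.96). DML1 had 629, 519, 317 and 147 reads in hag1, against 316, 872, 1087 and 279 in Col, so that it too was higher in the hag1 root and in each Col explant library. Among the epidermal genes the r with PDF1 was 0.88 for ATML1 (rank 109 of 13545), 0.83 for ACR4 (rank 210), 0.79 for PDF2 (rank 382), 0.77 for FDH (rank 434) and 0.53 for HDG11 (rank 1935). For ATML1, with few reads, they were AT1G26270 (0.98), GSL11, a callose synthase gene (0.98), AT1G15490 (0.97), AT4G14270 (0.96) and XIF, a myosin gene (0.96). The 8 points share 2 genotypes and 4 stages and are not independent, so these values describe likeness and carry no test. Pearson r compares the shape of a pattern and not the size of its changes. ATR had 116 to 276 reads over the libraries, where PDF1 had 38 to 3122.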

How the data were processed

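Total RNA libraries were made by BGI with Illumina protocols, per the labels. Per the file headers, the authors deposited for each transcript model the count of unique reads, RPKM, and coverage as percent of the model. The deposited RPKM equals count over model length and library total, checked on every line. TAIR 10 is named in the submitters' processing notes; no aligner, counter or use of strand is given in the sources used here. Counts of 30591 models were summed to 25686 loci; in the 4184 loci with more than 1 listed model, shared reads appear to be missing.

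TMM scaling, filterByExpr and the quasi-likelihood test came from edgeR 4.0.16 (R 4.3.3), with Benjamini-Hochberg adjustment at 0.05 over 18710 loci. The fit had 3 residual degrees of freedom, and the biological coefficient of variation was 0.264. The code was tested on simulated data. DESeq2 1.42.0 and limma 3.58.1 (on log2 of RPKM plus a pseudocount) were alternatives, with other scalings, filters and each library left out. Of 25463 loci compared, 99% had at least 90% of their span within the same RefSeq gene of TAIR10.1, so the files' coordinates were used on that genome.

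The members, gene lists and tests were chosen with earlier results of these data known. All members were named, with the 5 loci most like PDF1 and like ATML1, and per list and comparison up to 4 called genes with the largest change. ALE2, HDG1, CER2, DCR and SCRM2 and the markers SUC2, XCP2, IRX3, RHD6, WER and RSL4, named outside this rule, were chosen after their values were seen.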

Additional observations from a re-analysis of the deposited data

Results flagged for a closer look

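The difference between hag1 and Col was not the same at all stages for PDF1, PDF2 and FDH: for each of them the counting intervals of a pair of stages, or of the same step in the genotypes, lay on opposite sides of equality. The log2 ratio of hag1 to Col after 2 days on SIM minus that in roots was -6.12 for PDF1 and -2.04 for PDF2. The log2 change of PDF1 from root to CIM in hag1 minus that in Col was -3.40, and the change from CIM to 2 days on SIM -2.71. For FDH the ratio of hag1 to Col after 2 weeks on SIM minus that on CIM was -2.53, and the change from CIM to 2 days on SIM in hag1 minus that in Col was -1.71. These differences rest on 1 library per genotype and stage and were not tested as such. The related test of explants minus roots did not pass for PDF1, PDF2 or FDH (edgeR adjusted p = 0.603, 0.623 and 0.724), nor for any other locus. It takes the explant stages together, so it cannot decide the differences of FDH and PDF1 between explant stages.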

How the results depend on the processing

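The direction of the hag1 to Col ratio within a stage was kept for each epidermal gene with at least 50 reads on total-read scaling and DESeq2 size factors. On total-read scaling the median log2 change of all loci was 0.17 for CIM against root and -0.19 for SIM 2 weeks against 2 days. With TMM it was 0.01 in each of these comparisons. The number of epidermal genes called for CIM against root, 0 in edgeR, was 2 with DESeq2's Wald test and 1 with limma and a pseudocount of 1, and 0 to 2 with 1 library left out. For SIM 2 weeks against 2 days it was 3, and 0 to 3 with 1 library left out. For SIM 2 weeks against root it was 1, then 0 with total reads and with limma at either pseudocount, 4 with DESeq2, and 0 to 2 with 1 library left out. HDG11 for SIM 2 weeks against root, 0.03, was -0.021 with DESeq2 size factors, -0.0091 with a filter of 1 CPM in 4 libraries and -0.023 with DESeq2's test. With 1 library left out, log2 values that changed sign ranged from -0.96 to 1.80 (ATML1), -0.14 to 2.29 (PDF2) and -1.0 to 3.68 (PDF1) for CIM against root. They ranged from -2.80 to 0.61 (PDF1), -0.57 to 0.19 (ACR4) and -0.87 to 0.53 (FDH) for SIM 2 days against CIM. They ranged from -4.47 to 0.24 (PDF1) and -0.084 to 0.14 (HDG11) for SIM 2 weeks against root, and from -0.78 to 0.35 (PDF2) for hag1 against Col; the cause was not tested. Of the 5 loci most like PDF1, 2 were shared when no minimum level was set; for ATML1 it was 3, and 2 with a pseudocount of 0.1. The share of promoters with an L1 box was 3.82% in the bases before the start alone. No paired analysis was possible because each group holds 1 library, so that no replicate number pairs libraries; stage, shared by a hag1 and a Col library, is already a term of the model.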
